A study of Mus musculus with 12 samples.

Results

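Immediate early genes are the first genes that a cell transcribes after a growth factor, stress or calcium signal, without need of newly made protein. Those described here, in mouse rhabdomyosarcoma tumors, were chosen by name: Fos, Fosb, Jun, Junb, Egr1, Egr2, Nr4a1, Ier2, Ier3 and Dusp1. They are 10 of the 38898 genes in the files, and all 10 were among the 17602 genes whose counts were high enough to test.

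Tumors grew in the flank of young adult WT mice of the strain labelled C57/Bl6J after injection of Rd76-9 cells, a line from a chemically induced rhabdomyosarcoma of a female mouse of the same background, and were taken on day 16. Each of 4 groups had 3 tumors, and mRNA of each whole tumor was sequenced to 29342195 to 32108055 estimated counts. Vehicle tumors (m1 to m3, titled Control) came from mice given empty nanoparticles and saline. VCR tumors (m4 to m6) came from mice given vincristine, a drug that binds tubulin and blocks mitosis, at 0.25 mg/kg. RCM1 tumors (m7 to m9) came from mice given 8 µg of RCM1, an inhibitor of the cell cycle transcription factor FOXM1, in nanoparticles carrying folic acid, and VCR + RCM1 tumors (m10 to m12) from mice given both at these doses. By the study's methods, vincristine was injected weekly into the abdomen and nanoparticles every other day into a vein. The treatment label of the vehicle tumors also names the RCM1 nanoparticle, and these tumors were taken as controls from their titles and the study's methods. The labels number tumors and name no animal or batch, so p-values measure the spread between these tumors.

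Growth factor receptors switch these genes on through RAS and the kinase ERK, which activate serum response factor and its partners at CArG boxes, and through CREB at cyclic AMP response elements. Fos and Jun proteins pair to form AP-1, a factor that drives growth genes and, in muscle cells, can restrain the muscle regulator MyoD. The transcripts are short-lived, and products such as Dusp1 switch the kinases off again.

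The tumors carried part of a rhabdomyosarcoma signature. Transcripts of the early muscle regulator Myf5 (48.9 to 69.9 CPM, counts relative to library size, scaled by edgeR's TMM factors) and of the muscle cadherin Cdh15 (125 to 202 CPM) were present in all 12 tumors. Myod1, the regulator used to diagnose the disease, was at 0 CPM in m2, m3 and m8 and reached no more than 2.38 CPM in any tumor, and Myog reached no more than 2.16 CPM. Pax7 did not pass 0.19 CPM. The tissue label was therefore met by Myf5 and Cdh15 and not by Myod1 or Myog, both at or near 0 in the vehicle tumors.

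Between genes, levels were compared as TPM, which accounts for transcript length, averaged over the 12 tumors. Junb, an AP-1 subunit, was the most abundant member at 234 TPM ± 38.4 (SD, n = 12), above 96.8% of the genes tested, followed by Jun at 92.0 TPM ± 9.70 and Ier2 at 56.9 TPM ± 12.1. In 12 of 12 tumors Junb was above Jun and Jun above Ier2, with no overlap of their ranges. The 4 genes next in order were Fos (35.5 TPM ± 21.1), Ier3 (32.9 TPM ± 8.75), Dusp1 (31.1 TPM ± 10.6) and Egr1 (23.4 TPM ± 5.98). Fos was above Ier3 in only 4 of 12 tumors, Ier3 above Dusp1 in 9 and Dusp1 above Egr1 in 9, so these neighbours did not differ beyond their spread. Nr4a1 (17.1 TPM ± 9.33), Egr2 (13.4 TPM ± 3.31) and Fosb (9.51 TPM ± 6.43, at the percentile 49.5 of the genes tested) closed the order, and their ranges overlapped as well. Counts were ample for each: the lowest was 241 estimated counts, of Fosb in m8, and the highest 10078, of Junb in m5.

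The AP-1 subunits differed most in how far they varied. Fos, which pairs with Jun proteins to form AP-1, stood at 91.2, 24.2 and 23.2 CPM in the vehicle tumors m1 to m3, at 91.0, 45.7 and 21.9 CPM in the VCR tumors m4 to m6, at 46.5, 16.2 and 22.6 CPM in the RCM1 tumors m7 to m9, and at 50.2, 46.3 and 40.1 CPM in the VCR + RCM1 tumors m10 to m12. A single vehicle tumor and a single VCR tumor, m1 and m4, stood far above the other 10, m8 was lowest, and all 4 groups overlapped. In bulk tissue a smaller number of cells of a kind and less RNA per cell cannot be told apart, and this holds for every level given here. Fosb, a second partner of Jun proteins, stood at 47.6, 12.3 and 17.9 CPM in vehicle, 54.7, 15.3 and 11.3 CPM in VCR, 19.5, 7.69 and 11.9 CPM in RCM1 and 17.5, 22.4 and 19.5 CPM in VCR + RCM1 tumors. The same tumors, m1 and m4, were high and m8 was again lowest, with overlap between all groups.

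Jun, the founding subunit of AP-1, varied least of the members within groups. Its values were 181, 144 and 219.7 CPM in vehicle, 153, 192 and 184 CPM in VCR, 193, 158 and 165 CPM in RCM1 and 168, 162 and 188 CPM in VCR + RCM1 tumors. The lowest and the highest tumor, m2 and m3, both belonged to the vehicle group. Junb, a Jun relative that also restrains Jun itself, stood at 249.5, 184 and 217 CPM in vehicle and 268, 333 and 275 CPM in VCR tumors. In RCM1 tumors it was 256, 178 and 232 CPM and in VCR + RCM1 tumors 272, 226 and 272 CPM. All 3 VCR tumors were above all 3 vehicle tumors, while the groups given RCM1 overlapped with vehicle.

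The zinc finger factor Egr1, which binds GC-rich promoters, stood at 43.8, 21.5 and 34.8 CPM in vehicle, 59.2, 55.3 and 48.0 CPM in VCR, 42.3, 29.8 and 48.4 CPM in RCM1 and 54.5, 37.1 and 40.3 CPM in VCR + RCM1 tumors. The VCR tumors were again all above the vehicle tumors, and m2 was lowest of all. Its relative Egr2, known for its part in nerve myelination, stood at 29.7, 12.4 and 19.1 CPM in vehicle, 20.9, 24.6 and 30.3 CPM in VCR, 27.4, 17.4 and 24.7 CPM in RCM1 and 28.01, 21.5 and 22.8 CPM in VCR + RCM1 tumors. Here m2 was lowest too, and all groups overlapped. The orphan nuclear receptor Nr4a1 stood at 24.7, 19.6 and 10.2 CPM in vehicle, 63.5, 42.4 and 19.0 CPM in VCR, 19.0, 11.97 and 32.6 CPM in RCM1 and 23.7, 22.4 and 20.2 CPM in VCR + RCM1 tumors. Of the VCR tumors m4 and m5 were the highest of all 12, whereas m6 lay inside the vehicle range.

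Ier2, a small nuclear protein of the early response, stood at 48.8, 31.7 and 43.9 CPM in vehicle, 65.4, 73.1 and 53.4 CPM in VCR, 43.0, 39.9 and 44.5 CPM in RCM1 and 57.7, 43.1 and 48.4 CPM in VCR + RCM1 tumors. The 3 VCR tumors were above every vehicle and every RCM1 tumor, and of the VCR + RCM1 tumors m10 alone reached into their range. Ier3, which affects ERK signalling and cell survival, stood at 11.5, 17.8 and 28.5 CPM in vehicle, 17.4, 26.2 and 20.3 CPM in VCR, 23.4, 9.99 and 21.0 CPM in RCM1 and 14.2, 17.4 and 22.5 CPM in VCR + RCM1 tumors. Its highest tumor, m3, and 1 of its lowest, m1, were both vehicle tumors. Dusp1, the phosphatase that inactivates MAP kinases, stood at 50.2, 33.9 and 31.4 CPM in vehicle, 64.9, 44.5 and 24.5 CPM in VCR, 30.4, 25.0 and 23.5 CPM in RCM1 and 26.6, 31.0 and 35.3 CPM in VCR + RCM1 tumors. The RCM1 tumors were all below the vehicle tumors, and the VCR tumors spanned both.

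**Figure D1:**
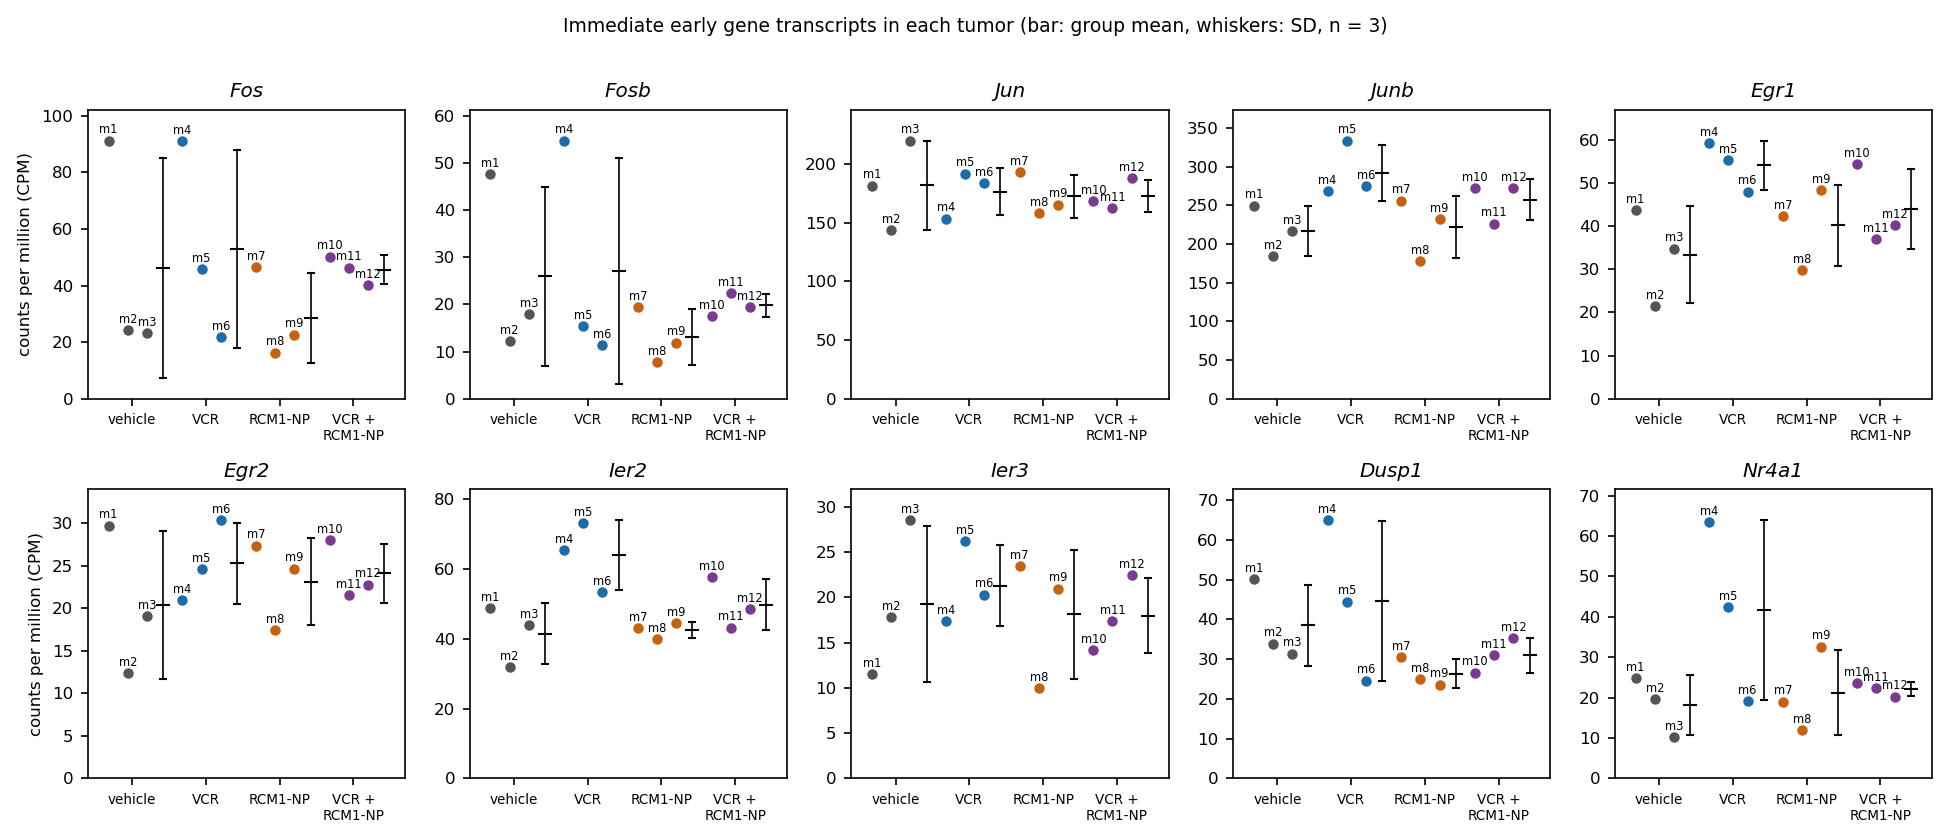
Level of each of the 10 immediate early genes in every tumor, in CPM on a linear axis from 0, by treatment group (RCM1-NP is RCM1 in nanoparticles); points are tumors, bars group means and whiskers the SD (n = 3). Fos and Fosb are high in m1 and m4 alone, and Ier2, Junb and Egr1 are higher in all 3 VCR tumors than in all 3 vehicle tumors.

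Spread within groups was wide for most members. Between the lowest and highest of the 12 tumors, CPM differed 7.11-fold for Fosb, 6.22-fold for Nr4a1 and 5.61-fold for Fos, but 1.88-fold for Junb and 1.53-fold for Jun. The SD of log2(CPM + 0.5) within groups was 0.85 for Fos and 0.84 for Fosb, larger than in 98.5% and 98.4% of the 11173 genes with a mean of at least 5 CPM. The median of this SD over the 10 members was 0.40, against 0.13 over those 11173 genes, and 10 of 10 members were above the latter; since the members were chosen by name with earlier results known, this is a description.

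Tumors rather than genes often set the extremes. Vehicle tumor m1 was the highest of its group for 8 of 10 members and RCM1 tumor m8 the lowest of its group for 9 of 10. Tumors m2 and m8 each held the lowest value of all 12 for 4 members, and m4 held the highest for 4. The 10 members summed to 778, 501 and 645.5 CPM in m1 to m3, to 858, 852 and 687.5 CPM in m4 to m6, to 701, 493.5 and 626 CPM in m7 to m9, and to 713, 629 and 709 CPM in m10 to m12. Thus m2 and m8, in different groups, were low, and m4 and m5 high.

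Vincristine alone was the treatment with the most members on the higher side. Against vehicle, Ier2 rose 1.54-fold, from 41.5 CPM ± 8.75 to 64.0 CPM ± 9.93 (SD, n = 3 each), a log2 fold change of 0.63 (SE 0.16) with an adjusted p of 0.0851 in edgeR's quasi-likelihood test after Benjamini-Hochberg adjustment over all 17602 genes, the threshold being 0.1. It was the only member called by edgeR, 1 of 10, where 977 of all genes, or 5.55%, were called and 2.8% were called higher. Junb (log2 fold change 0.43, SE 0.15; 217 CPM ± 32.9 in vehicle and 292 CPM ± 36.0 in VCR) had an edgeR adjusted p of 0.141. Egr1 (log2 fold change 0.70, SE 0.25; 33.4 CPM ± 11.2 and 54.2 CPM ± 5.69) also had an edgeR adjusted p of 0.141. Nr4a1 (log2 fold change 1.19, SE 0.45; 18.2 CPM ± 7.37 and 41.7 CPM ± 22.3) had an edgeR adjusted p of 0.156.

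At an unadjusted p under 0.05 in edgeR there were 4 members, these same genes and all higher, where 22.1% of all genes passed and 11.7% passed as higher. In 3 members, Ier2, Junb and Egr1, every VCR tumor was above every vehicle tumor, as in 13.5% of all genes; groups that did not overlap in either direction made up 24.4% of all genes. Of the 10 members 9 were on the higher side in VCR tumors, with a median log2 fold change of 0.26 against 0.0016 over all genes tested. The remaining genes had log2 fold changes from −0.04 for Jun to 0.31 for Egr2, and those of Fos (0.19, SE 0.59) and Fosb (0.06, SE 0.60) were far smaller than their errors.

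With all tumors in the fit, edgeR, DESeq2 and limma-voom each called Ier2, and the tool decided whether Egr1 and Junb were called too. The edgeR call of Ier2 depended on single tumors and on the groups in the fit. DESeq2 called 3 members, Ier2, Egr1 and Junb (adjusted p of 0.00733, 0.0413 and 0.0601 in DESeq2), where it called 7.39% of 29983 genes. Those genes include many with too few counts to be among the 17602 tested in edgeR. The 7.39% is therefore not a share of genes counted as well as the members. Limma-voom called Ier2 alone (adjusted p 0.0921 in limma-voom). Over the alternatives that kept all tumors of both groups, the adjusted p of Ier2 ran from 0.00733 to 0.137, the latter in edgeR with the 6 tumors of these groups alone. In edgeR the adjusted p of Ier2 was 0.187 without m2, 0.225 without m4, 0.323 without m5, 0.123 without m11 and 0.112 without m12, so that each of these tumors was needed for the call. Its log2 fold change stayed between 0.45 and 0.76 whichever tumor was left out. Without m6, edgeR gave Nr4a1 an adjusted p of 0.0688 (log2 fold change 1.51) and Ier2 one of 0.0538. The log2 fold change of Fos was −0.45 without m4 and 1.16 without m1. Of all genes tested, edgeR called 0 without m2, 0 without m4 and 0 without m5 (3140, 2802 and 2154 at an unadjusted p under 0.05), and 1 without m11. The 977 fell to 281 without m1, 890 without m7, 525 without m10 and 243 without m12, and rose to 1288 without m3, 2012 without m6, 1016 without m8 and 1407 without m9. The 0 in other comparisons became 8 in RCM1 against vehicle without m3, 44 in VCR + RCM1 against vehicle without m9 and 1 for the interaction without m7. DESeq2 and limma-voom, which called 2215 and 681 genes with all tumors, were not run with tumors left out.

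Muscle transcripts were high in the VCR tumors, and also in tumors of the groups given RCM1. The 12 markers of mature muscle fibres, led by Acta1 at a mean of 781 TPM, summed to 161, 49.4 and 42.2 CPM in the vehicle tumors m1 to m3 and to 3793, 12219 and 1663 CPM in the VCR tumors m4 to m6. In the RCM1 tumors m7 to m9 they summed to 153, 212 and 18527 CPM and in the VCR + RCM1 tumors m10 to m12 to 2259.6, 4539 and 452 CPM. All 3 VCR tumors and m9 to m12 were thus higher than the vehicle tumors by far, and edgeR called 5 of the 12 markers higher in VCR against vehicle, among them Acta1 (log2 fold change 7.37, SE 2.08, adjusted p 0.0946). All 12 had an unadjusted p under 0.05 in edgeR, DESeq2 called 12 and limma-voom 1. Their part in the result for Ier2, Junb and Egr1 was not tested. In m9, the tumor with the highest sum, Ier2 stood at 44.5 CPM and Junb at 232 CPM, both inside the vehicle range, and Egr1 at 48.4 CPM, above it. In m5, the tumor with the next highest sum, Ier2 stood at 73.1 CPM, Junb at 333 CPM and Egr1 at 55.3 CPM, all above the vehicle range.

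Rhabdomyosarcoma markers, 12 genes of which 10 were tested and led by Cdh15 at 102 TPM, summed to 206, 239 and 302 CPM in vehicle, 489, 710.0 and 419 CPM in VCR, 241, 301 and 816 CPM in RCM1 and 373, 449 and 292 CPM in VCR + RCM1 tumors. Much of the difference in this sum came from Des, also a gene of mature fibres, which ran from 7.76 CPM in m2 to 573 CPM in m9. Without Des, a sum chosen after the values were seen, the markers stood at 196, 232 and 291 CPM in vehicle, 292, 281 and 284 CPM in VCR, 229, 283 and 244 CPM in RCM1 and 254, 247 and 237 CPM in VCR + RCM1 tumors. The vehicle and VCR tumors then overlapped. In VCR against vehicle edgeR called Myod1, Myog and Des higher, 7 of the 10 markers had an unadjusted p under 0.05, and DESeq2 called 5 and limma-voom 2. Smooth muscle and pericyte markers (6 of 6 tested, led by Des at 79.8 TPM) summed to 130.1, 122 and 135 CPM in vehicle, 339, 609 and 284 CPM in VCR, 168, 164 and 739.6 CPM in RCM1 and 266, 353 and 195 CPM in VCR + RCM1 tumors. Without Des, again chosen after the values were seen, they summed to 120.0, 114 and 124 CPM in vehicle, 142, 179.9 and 149.8 CPM in VCR, 156, 146 and 167 CPM in RCM1 and 147, 152 and 139.6 CPM in VCR + RCM1 tumors, so that all 9 treated tumors were above vehicle. Of the 6 markers edgeR called Rgs5 (log2 fold change 0.60), Mcam (0.48) and Des (4.70) higher in VCR.

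Endothelial markers (8 of 8 tested, led by Cdh5 at 28.5 TPM) summed to 201, 143 and 163 CPM in vehicle, 216, 282 and 206 CPM in VCR, 205, 205 and 246 CPM in RCM1 and 206, 215 and 220.2 CPM in VCR + RCM1 tumors. All 9 treated tumors were above the 3 vehicle tumors, and edgeR called 2 markers higher in VCR, Esam (log2 fold change 0.74) and Tie1 (0.81). Fibroblast markers (7 of 7 tested, led by Col1a2 at 777 TPM) summed to 2795, 2443 and 3004 CPM in vehicle, 3572, 3444 and 3359.8 CPM in VCR, 4121, 3682 and 2999.6 CPM in RCM1 and 3312, 3105 and 3538 CPM in VCR + RCM1 tumors. Here too the VCR tumors were above the vehicle tumors, and edgeR called Col1a1 (log2 fold change 0.76), Dcn (1.28) and Pi16 (1.50) higher in VCR. The part of endothelial cells and fibroblasts in the values of the immediate early genes was not tested.

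Markers of blood and fat cells did not follow the VCR group. Macrophage and monocyte markers (8 of 8 tested, led by Lyz2 at 1964 TPM) summed to 2290.3 CPM in m2 at the lowest and 3360.4 CPM in m8 at the highest, 2 tumors that were both low in the immediate early genes. Neutrophil markers (4 of 6 tested, led by Csf3r at 7.03 TPM) summed to between 12.3 and 22.8 CPM, lymphocyte markers (7 of 9 tested, led by Nkg7 at 6.01 TPM) to between 5.85 and 43.7 CPM, and keratinocyte markers (1 of 6 tested, Krt10 at 3.59 TPM) to between 5.04 and 6.58 CPM. Adipocyte markers (6 of 6 tested, led by Fabp4 at 95.8 TPM) ran from 6.62 CPM in m3 to 130.4 CPM in m2. Red blood cell markers (5 of 5 tested, led by Hbb-bs at 187 TPM) summed to 232, 307 and 11.6 CPM in vehicle, 409, 12.5 and 6.37 CPM in VCR, 332, 162 and 85.3 CPM in RCM1 and 12.6, 6.70 and 18.8 CPM in VCR + RCM1 tumors. They were high in m1 and m4, the tumors high in Fos, but also in m2, m7 and m8. The lymphocyte markers were highest in the same 2 tumors, at 43.7 CPM in m4 and 32.1 CPM in m1, and next highest in m12 at 24.6 CPM. The part of red blood cells and lymphocytes was not tested. In VCR against vehicle edgeR called 0 genes in these 6 lists of blood, fat and skin cells, neither did limma-voom, and DESeq2 called 1, a macrophage and monocyte marker; at an unadjusted p under 0.05 in edgeR there were 1 macrophage and monocyte and 1 lymphocyte marker. No marker of any list was at 0 counts in all 12 tumors.

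RCM1 alone left no member past the threshold. The clearest separation was in Dusp1, which stood at 38.5 CPM ± 10.2 in vehicle and 26.3 CPM ± 3.63 in RCM1 tumors (SD, n = 3 each), a log2 fold change of −0.55 (SE 0.29) with an edgeR p of 0.0842 and an edgeR adjusted p of 0.576. Every RCM1 tumor was below every vehicle tumor in this 1 member, where 11.4% of all genes had groups that did not overlap. Fosb had a log2 fold change of −0.997 (SE 0.61, edgeR adjusted p 0.633) and Fos of −0.70 (SE 0.60, edgeR adjusted p 0.747), but without m1 that of Fos was 0.26. In edgeR 0 of 10 members were called, as were 0 of all genes or 0%, and 0 members had an unadjusted p under 0.05, where 9.78% of all genes did. DESeq2 and limma-voom each called 0 members as well, while DESeq2 called 278 of all genes. Members were split, 5 higher and 5 lower, with a median log2 fold change of −0.02.

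No marker passed the adjusted threshold of edgeR in this comparison. Some had an unadjusted p under 0.05 in edgeR, as did 9.78% of all genes. All 12 mature muscle markers had an unadjusted p under 0.05 in edgeR, which called 0 of them at the adjusted threshold, as did limma-voom, whereas DESeq2 called 10; their sum was high in m9 and not in m7 or m8. At an unadjusted p under 0.05 there were also 5 rhabdomyosarcoma, 5 endothelial, 3 fibroblast, 3 smooth muscle and pericyte and 3 adipocyte markers, the last list with a median log2 fold change of −3.08. Of these lists edgeR and limma-voom called 0, and DESeq2 called 1, 1, 1, 2 and 0. Adipocyte markers summed to 70.3, 130.4 and 6.62 CPM in vehicle and 20.8, 29.8 and 35.1 CPM in RCM1 tumors, so that vehicle tumor m3 was below every RCM1 tumor. The part of the markers of all these lists in the values of the members, Dusp1 among them, was not tested.

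In tumors given both drugs the log2 fold changes of the members against vehicle ran from −0.39 (SE 0.60) for Fosb to 0.40 (SE 0.25) for Egr1, and Dusp1, at 30.9 CPM ± 4.35, had one of −0.31 (SE 0.29). Called by edgeR were 0 members and 0% of all genes, and 0 members had an unadjusted p under 0.05, where 7.31% of all genes did. DESeq2 and limma-voom called 0 members too. The smallest edgeR p of a member was 0.131 and the smallest edgeR adjusted p 0.742. No member had groups that did not overlap, against 12.6% of all genes. The members were split 5 and 5, with a median log2 fold change of 0.11. Among markers, at an unadjusted p under 0.05 in edgeR there were 11 of the 12 mature muscle markers (median log2 fold change 5.63), 5 of 8 endothelial markers and all 5 red blood cell markers (median −3.86), besides 3 rhabdomyosarcoma, 3 smooth muscle and pericyte and 2 fibroblast markers. Of these lists edgeR and limma-voom called 0, and DESeq2 called 3 mature muscle markers, 1 rhabdomyosarcoma marker, 1 fibroblast marker and 0 of the rest. Their part in the values of the members was not tested.

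Set against VCR alone, all 10 members were on the lower side in the tumors given both drugs. The log2 fold changes ran from −0.92 (SE 0.44) for Nr4a1 to −0.03 for Jun, with a median of −0.27 against −0.0042 over all genes. Ier2, at 49.7 CPM ± 7.38 after both drugs and 64.0 CPM ± 9.93 after VCR, was the only member with an unadjusted p under 0.05 in edgeR (p 0.0449, adjusted p 0.855; log2 fold change −0.36, SE 0.16), where 5.26% of all genes passed. Called by edgeR were 0 members and 0% of all genes, and DESeq2 and limma-voom called 0 members. No member had groups that did not overlap, against 12.9% of all genes. For Fos, the log2 fold change of −0.21 turned to 0.43 without m4, and for Fosb to 0.57, so the side of both rested on that tumor. Jun also turned to the higher side without m5 (0.034), m6 or m11, and Egr2 without m6 (0.091) or m11.

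Set against RCM1 alone, 9 members were on the higher side after both drugs. Fos (log2 fold change 0.68, SE 0.60) and Fosb (0.61, SE 0.61) had the largest values, Ier3 the lowest (−0.01), and the median was 0.17. Called by edgeR were 0 members and 0% of all genes, 0 members had an unadjusted p under 0.05 where 2.07% of all genes did, and DESeq2 and limma-voom called 0 members. The smallest edgeR p of a member was 0.183. No member had groups that did not overlap, against 5.88% of all genes.

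The interaction asks whether the effect of both drugs differed from the sum of their single effects on the log2 scale. It was −1.13 (SE 0.63) for Nr4a1, with an edgeR p of 0.0958 and an edgeR adjusted p of 0.438, −0.57 (SE 0.35) for Egr1 and −0.40 (SE 0.23) for Ier2. Each of these 3 genes had its highest group mean after VCR alone. The interaction was above 0 for 4 members, among them Fosb at 0.54 (SE 0.85) and Fos at 0.49 (SE 0.84), and below 0 for 6, with a median of −0.19 against −0.0097 over all genes. Called by edgeR were 0 members and 0% of all genes, and 0 members had an unadjusted p under 0.05, where 13.8% of all genes did. DESeq2 called 0 members, although it called 472 of all genes, and limma-voom called 0. The comparisons share tumors: the 3 vehicle tumors serve as control of each treatment, and the VCR tumors enter the comparison with vehicle, the one with both drugs and the interaction. A low value in m2, for example, raises several fold changes at once.

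**Figure D2:**
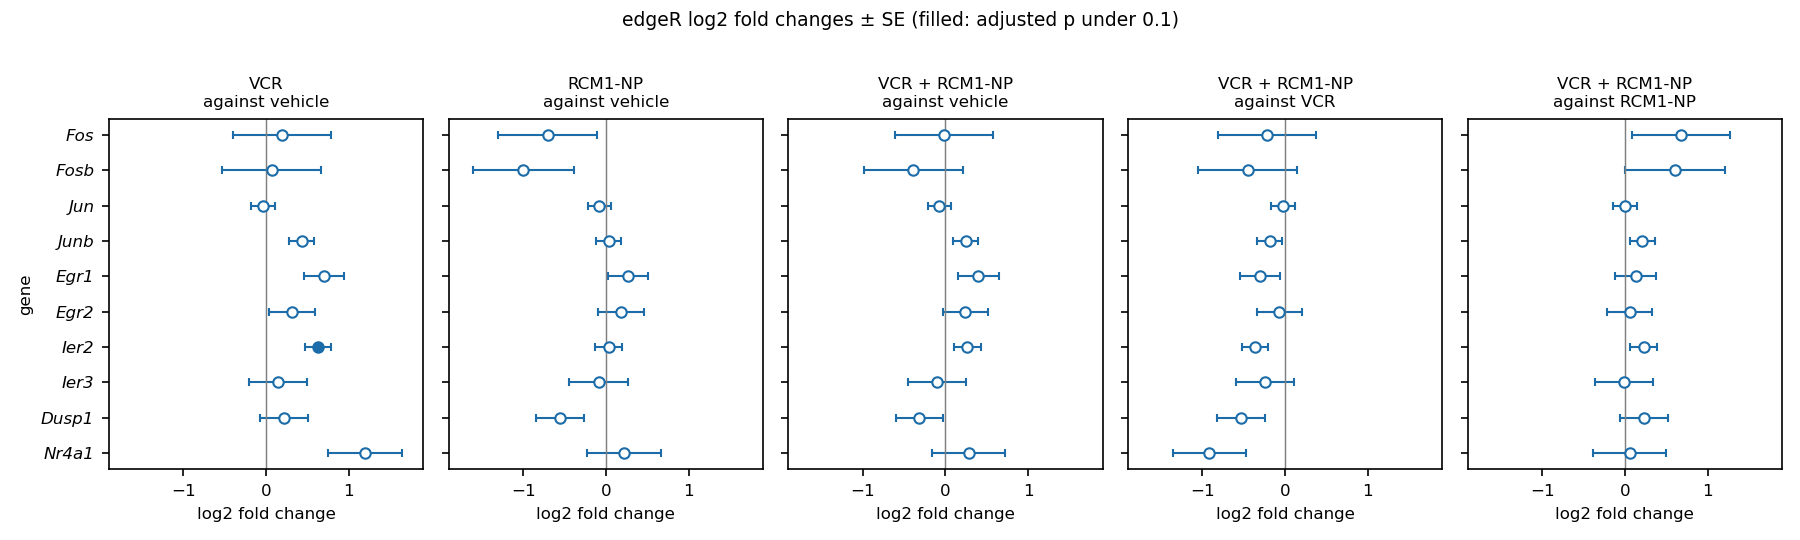
Log2 fold change of each immediate early gene in 5 comparisons (edgeR, 12 tumors in 1 fit; RCM1-NP is RCM1 in nanoparticles), with whiskers of 1 SE; filled points have an adjusted p under 0.1. Ier2 in VCR against vehicle (0.63) is the only filled point, and the whiskers of Fos and Fosb are the widest.

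Because Fos varied so much within groups, its relation to the other 9 members was examined over the 12 tumors on log2(CPM + 0.5), with permutation p-values from 100000 permutations adjusted over the 9 relations. Fosb followed Fos closely, with a Pearson r of 0.921 (permutation p 4e-05, adjusted p 0.00036) and a Spearman rho of 0.839 (permutation p 0.00122, adjusted p 0.011). Left without m1 and m8, the 2 tumors farthest from the median of Fos, r was 0.859, and with each group centred on its mean it was 0.930. Dusp1 came next with an r of 0.792 (permutation p 0.00179, adjusted p 0.00805) and a rho of 0.643 (permutation p 0.0281, adjusted p 0.127), and r was 0.721 without m1 and m8. With groups centred, both coefficients of Dusp1 passed an adjusted p of 0.05, with r at 0.846. Centring ties the values of a group together, which the permutations ignored, so the p-values with groups centred may be too small. Nr4a1 had an r of 0.639 (permutation p 0.0235, adjusted p 0.0704) and a rho of 0.545 (permutation p 0.0712, adjusted p 0.214), with r at 0.644 without m1 and m8.

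The other relations did not pass. Junb, Egr1, Ier2 and Egr2 had r between 0.407 and 0.548 with Fos and adjusted permutation p-values of r between 0.112 and 0.247. Jun (r −0.0066, rho 0.0070) and Ier3 (r −0.118, rho −0.196) had values near 0 over these tumors. Since m1 and m4 both stood far above the rest in Fos, r was also computed without this pair, a choice made after seeing the data. Over the remaining 10 tumors r was 0.827 for Fosb (permutation p 0.00333, adjusted p 0.03) but 0.512 for Dusp1 (permutation p 0.128, adjusted p 0.25), so the relation of Dusp1 rested on those tumors. Junb was second to Fosb, with an r of 0.655 (permutation p 0.0409, adjusted p 0.184), and the rho of Fosb (0.733, permutation p 0.0202, adjusted p 0.182) did not pass.

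**Figure D3:**
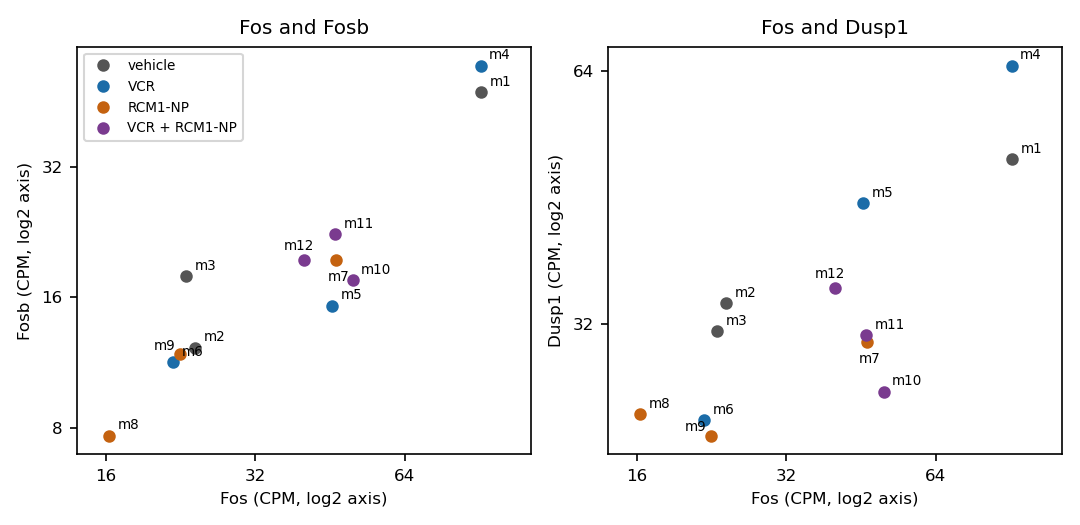
Fos against Fosb and Fos against Dusp1 in the 12 tumors, in CPM on log2 axes, with colours for the 4 groups (RCM1-NP is RCM1 in nanoparticles) and labels for tumors. The r of Fos and Fosb over all tumors was 0.921, and m1 and m4 form the upper end in both plots.

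Among members other than Fos, the values of Egr1 and Ier2 were most alike across tumors (r 0.899), then Junb and Ier2 (0.875), Junb and Egr1 (0.850), Fosb and Dusp1 (0.830) and Egr1 and Egr2 (0.792). Jun and Nr4a1 had the lowest value, −0.334. These are descriptions over 12 tumors that share treatment groups. Fos, Fosb and Dusp1 each had their highest values in m1 and m4, and Ier2, Egr1 and Junb were above vehicle in all VCR tumors.

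Other genes were ranked by how closely they followed the mean of the 10 standardised members across the 12 tumors, over 11163 genes with a mean of at least 5 CPM. The 10 most alike by Pearson r were Zfp36 (0.912), Zfp467 (0.911), Ccn1 (0.908), Bloc1s4 (0.896), Rwdd2b (0.883), Atp6v0b (0.857), Fhl2 (0.849), Chst2 (0.844), Sgk1 (0.843) and Rgs16 (0.842). Zfp36, which makes AU-rich mRNAs unstable, ran from 37.7 CPM in m8 to 102 CPM in m4, and Ccn1, a secreted matrix protein, from 172 CPM in m8 to 489 CPM in m5. Zfp36, Ccn1 and Sgk1 also belong to a list of other early response genes. Of that list 39 genes were ranked, 29 had an r above 0 and 5 were among the 100 most alike, with a median r of 0.418 against −0.0172 over all genes ranked.

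The wider early response was examined in that list of 44 other immediate early and early response genes, of which 43 were tested. In VCR against vehicle edgeR called 2 higher, the growth arrest gene Gadd45g (log2 fold change 0.69, SE 0.15, adjusted p 0.0709) and the pseudokinase Trib1 (0.36, SE 0.11, adjusted p 0.0993), and 1 lower, the ADP-ribosyltransferase Tiparp (−0.53, SE 0.14, adjusted p 0.0851). Gadd45g stood at 42.4, 36.2 and 37.3 CPM in vehicle and 62.6, 76.0 and 48.4 CPM in VCR tumors. The groups did not overlap for any of these genes. Of the 43 genes 30 were on the higher side, with a median log2 fold change of 0.14. The 3 called of 43 stand beside 5.55% of all genes, and 7 had an unadjusted p under 0.05, where 22.1% of all genes did. DESeq2 called 5 of the 43 and limma-voom 2.

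Upstream of the immediate early genes, a list of 28 kinases, receptors and transcription factors had 2 genes called higher by edgeR in VCR against vehicle, Hras, a RAS protein (log2 fold change 0.44, SE 0.09, adjusted p 0.0694), and Mrtfa, a coactivator of serum response factor (0.25, SE 0.07, adjusted p 0.0870). Egfr, the receptor of epidermal growth factor, was called lower by edgeR (−0.63, SE 0.08, adjusted p 0.0486). It stood at 91.8, 101.6 and 104.9 CPM in vehicle, 63.1, 58.1 and 71.4 CPM in VCR, 66.9, 73.9 and 76.0 CPM in RCM1 and 72.7, 73.8 and 72.8 CPM in VCR + RCM1 tumors. All 9 treated tumors were below all 3 vehicle tumors. These calls stand beside 5.55% of all genes called by edgeR. At an unadjusted p under 0.05 in edgeR 3 genes of this list were higher and 3 lower, where 22.1% of all genes passed. The median log2 fold change of the list was 0.02, and DESeq2 called 5 of its genes and limma-voom 2.

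Genes downstream and beside them were followed too. Of 15 feedback and slower output genes of ERK signalling edgeR called 0 in VCR against vehicle, with 1 higher and 1 lower at an unadjusted p under 0.05, whereas DESeq2 called 2 and limma-voom 0. Its most abundant genes were Ccnd1, which encodes cyclin D (327 TPM; log2 fold change −0.03, SE 0.08), Il1rl1 (150 TPM; 0.26, SE 0.16) and Epha2 (82.6 TPM; 0.04, SE 0.09). Of 14 AP-1 partners and inhibitors 1 was called by edgeR, Atf7, lower in VCR (log2 fold change −0.39, SE 0.09, adjusted p 0.0726). At an unadjusted p under 0.05 there were 3 higher and 2 lower, where 22.1% of all genes passed, and DESeq2 called 2 and limma-voom 1. Of all genes edgeR called 5.55%. The median log2 fold changes of the pair of lists were −0.02 and 0.18.

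Genes of heat shock and hypoxia were followed because they respond to stress. Heat shock genes, like immediate early genes, can also rise when tissue is handled, and the part of handling in these tumors was not tested. Of 12 heat shock genes edgeR called 1, the small heat shock protein Hspb1, higher in VCR (log2 fold change 3.85, SE 1.10, adjusted p 0.0964). Hspb1 stood at 1.67, 2.15 and 1.14 CPM in vehicle, 24.9, 31.3 and 15.4 CPM in VCR, 4.01, 2.39 and 68.0 CPM in RCM1 and 10.7, 17.2 and 4.55 CPM in VCR + RCM1 tumors, so that it was high in the tumors high in mature muscle markers. Chosen after their values were seen, Hspa1a (log2 fold change −1.95, edgeR p 0.0388, edgeR adjusted p 0.201) and Hspa1b (−1.01, edgeR p 0.0883) were the furthest on the lower side, where 8 of the 12 heat shock genes lay. The median of the list was −0.08, and DESeq2 called 1 of its genes and limma-voom 0. Of 14 hypoxia genes edgeR called 3 lower in VCR, Vegfa (log2 fold change −0.52, SE 0.13, adjusted p 0.0801), Pdk1 (−0.80, SE 0.21, adjusted p 0.0870) and P4ha1 (−0.61, SE 0.18, adjusted p 0.0992). All 14 were on the lower side and 10 had an unadjusted p under 0.05, where 22.1% of all genes did, with a median log2 fold change of −0.69 against 0.0016 over all genes tested. DESeq2 called 9 of the 14 and limma-voom 2. Of all genes edgeR called 5.55%. The part of hypoxia in the values of the immediate early genes was not tested.

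In the other 5 comparisons edgeR called 0 genes of any of these 6 lists, as of all genes. In RCM1 against vehicle, 5 of the other early response genes had an unadjusted p under 0.05 in edgeR, all lower, where 9.78% of all genes passed, and the list's median log2 fold change was −0.10. In VCR + RCM1 against vehicle 2 were higher and 6 lower, where 7.31% of all genes passed. Limma-voom called 0 in both comparisons, and DESeq2 called 1 and 0. The hypoxia genes had a median log2 fold change of −0.21 in RCM1 and −0.50 in VCR + RCM1 against vehicle, with 0 and 5 genes at an unadjusted p under 0.05 in edgeR. As every call in VCR against vehicle, those of these lists were lost in edgeR without m2, without m4 or without m5, and many were lost without other tumors too. Of the 12 edgeR fits with 1 tumor left out, Egfr and Gadd45g were called in 8. Tiparp, Hras and Atf7 were called in 7, Vegfa in 6 and Pdk1 in 5. Hspb1, Mrtfa and P4ha1 were called in 4 and Trib1 in 3. The log2 fold changes of these called genes kept their sign whichever tumor was left out. They ran from −0.74 to −0.56 for Egfr, 0.53 to 0.82 for Gadd45g, 3.61 to 4.06 for Hspb1 and −0.73 to −0.37 for P4ha1.

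Some features of the genes bear on their counts. Fos, Jun, Junb, Egr1, Ier2, Ier3 and Dusp1 have 1 transcript each in the files. Fosb has 3, to which kallisto assigned 54.7%, 30.7% and 14.6% of the gene's estimated counts over all tumors. In m6, m7, m8, m10 and m12 the transcript with 30.7% had more counts than the one with 54.7%. Egr2 has 10 with 77.7% over all tumors on one of them, and Nr4a1 has 7 with at most 36.3% on one. Transcripts of a gene share most of their sequence and their split is uncertain, so only sums per gene were used. Egr2 overlaps the noncoding gene Gm32255, whose median was 1.5 estimated counts.

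In the genome (GRCm38.p6, RefSeq) 2 pairs of members share a chromosome. Junb (chr8:84976909-84978748) and Ier2 (chr8:84661331-84662852) lie on chromosome 8, and Dusp1 (chr17:26505591-26508472) and Ier3 (chr17:35821713-35822911) on chromosome 17. Across tumors the r of Junb and Ier2 was 0.875 and that of Dusp1 and Ier3 −0.0013.

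Promoters were searched for motifs on both strands in the 250 bases before each start, for 8 of 10 members; those of Egr1 and Ier2 are not in the table used. TGACG, the core of the cyclic AMP response element, was found in 6 members, Fos, Fosb, Junb, Egr2, Dusp1 and Nr4a1, and in 17.8% of 32851 promoters. The full element TGACGTCA, which contains TGACG on both strands, was found in Dusp1 and in 1.55% of promoters. A CArG box, the element of serum response factor, was found in Egr2 and in 1.47% of promoters. Boxes further than 250 bases before a start, or in Egr1 and Ier2, could not be found by this search, so other members may hold one. TATAAA was found in Fos and in 12.4% of promoters, the Egr motif GCGNGGGCG in Fosb and Nr4a1 and in 4.7%, and the AP-1 motif TGANTCA in 0 members and in 6.75%. A member was counted if any of its listed promoters held the motif, and Egr2 has several, whereas the percentages are shares of single promoters. A match describes letters only and shows no bound factor.

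Windows are printed for Fos, for Fosb and Dusp1, the members with the highest r with Fos, and for 1 of the 2 CArG boxes found for Egr2, with motifs in capitals and each read along the strand of its gene. The Fos windows, on the + strand upstream of the gene body (chr12:85473890-85477274), lie at chr12:85473813-85473840 with TGACG 66 bases before the start and at chr12:85473846-85473873 with TATAAA 33 bases before it. The Fosb window, on the − strand at chr7:19310089-19310116, lies inside the annotated span of Fosb (chr7:19302696-19310118) and holds TGACG 60 bases before the start listed for the promoter. The Dusp1 window, on the − strand upstream of the gene at chr17:26508598-26508625, holds TGACGTCA 143 bases before the start. The Egr2 window, on the + strand at chr10:67537788-67537815, lies inside the annotated span of Egr2, upstream of 3 of its listed starts and 72 bases before one of them. The other box, at chr10:67537485-67537512, lies 72 bases before a further listed start and is not printed.
Fos TGACG: gttccgcccagTGACGtaggaagtccat
Fos TATAAA: cacagcgcttcTATAAAggcgccagctg
Fosb TGACG: ggagttgcgggTGACGcaagcgcggggg
Dusp1 TGACGTCA: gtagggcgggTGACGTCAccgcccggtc
Egr2 CArG box: ttcctcagtCCATATATGGgcagcgacg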

How the data were processed

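Estimated counts per transcript were deposited as the authors made them, with kallisto on the GRCm38 transcriptome (version not given in the sources used here), from poly-A selected RNA of 12 tumors; the kit is a stranded kit and the labels call the libraries non-stranded. TPM per transcript, scaled by length, and effective lengths in bases were deposited beside them by the authors, whose own test was DESeq2. Here 120299 transcripts were matched by RefSeq identifier to 38898 genes, counts and TPM were summed per gene, and summed counts were rounded to whole numbers. Totals were 29342195 to 32108055 per tumor.

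The main test was edgeR 4.0.16 (quasi-likelihood F test, TMM, filterByExpr with a minimum count of 10, 12 tumors in 1 fit of 4 groups, no covariates) in R 4.3.3, with Benjamini-Hochberg adjustment over 17602 genes and a threshold of 0.1. Groups came from the tumors' titles. The edgeR steps were also run on simulated counts with known changes in the VCR group alone. That simulation held no differences in tissue content between tumors, so it does not bear on calls that rest on single tumors. Alternatives were DESeq2 size factors in edgeR, no filter, a mean count of at least 50, length offsets, robust estimation, limma-voom (limma 3.58.1), DESeq2 1.42.0, a threshold of 0.05, fits of the compared groups alone, and leaving out each tumor in turn.

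Relations of Fos used log2(CPM + 0.5), with log2(TPM + 0.1), a pseudocount of 5 and centred groups as alternatives, and 100000 two-sided permutations (Python 3.11.15, numpy 2.4.6, scipy 1.17.1, pandas 2.3.3, matplotlib 3.10.9). Genes named beside the members were the 10 most alike to their mean standardised level, and in each list up to 4 called genes by p, or the 3 with the highest TPM where none was called. Lists were other early response genes, upstream regulators, feedback and output genes of ERK, AP-1 partners, heat shock genes, hypoxia genes and markers of rhabdomyosarcoma, mature muscle, endothelial, fibroblast, smooth muscle and pericyte, macrophage, neutrophil, lymphocyte, adipocyte, keratinocyte and red blood cells. Marker genes named with values were the called ones, the defining muscle regulators and the most abundant marker of each list. Members and lists were chosen with earlier results of these data known. Promoter sequences are from RefSeq (GRCm38.p6), in a table that held 8 of 10 members.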

Additional observations from a re-analysis of the deposited data

How the results depend on the processing

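The number of immediate early genes changed in VCR against vehicle, 1 in the main test (Ier2), was 3 with DESeq2 on all 12 tumors and 3 with DESeq2 on the compared groups, 0 at an adjusted p threshold of 0.05, 0 in edgeR on the compared groups, and ran from 0 to 2 when single tumors were left out. It was 1 with DESeq2 size factors in edgeR, no filter, the stricter filter, length offsets, robust estimation and limma-voom. In the other 5 comparisons it was 0 under every alternative run. Apart from leaving out single tumors, 598 values of single genes or relations kept direction and side of the threshold, 5 newly passed it, 3 lost it and 10 changed sign; with single tumors left out these were 745, 3, 6 and 74.

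Signs that changed belonged to values near 0 or with wide errors. Limma-voom gave log2 fold changes of −0.057 for Fosb in VCR against vehicle, 0.27 for Fos in VCR + RCM1 against vehicle, 0.011 for Fos in VCR + RCM1 against VCR and 0.056 for Ier3 in VCR + RCM1 against RCM1. The log2 fold change of Jun, VCR + RCM1 against RCM1, was −0.0010 with DESeq2 size factors, −0.0016 with DESeq2 on all tumors and −0.0030 with DESeq2 on the compared groups. The cause was not tested.

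With single tumors left out, log2 fold changes in VCR against vehicle ran from −0.45 to 1.16 for Fos, −0.96 to 0.85 for Fosb, −0.20 to 0.12 for Jun, −0.12 to 0.54 for Ier3 and −0.16 to 0.48 for Dusp1. In RCM1 against vehicle they ran from −1.25 to 0.26 for Fos, −0.22 to 0.084 for Jun, −0.082 to 0.17 for Junb, −0.084 to 0.56 for Egr2, −0.13 to 0.17 for Ier2, −0.35 to 0.31 for Ier3 and −0.24 to 0.51 for Nr4a1. In VCR + RCM1 against vehicle they ran from −0.35 to 0.94 for Fos, −0.74 to 0.39 for Fosb, −0.23 to 0.088 for Jun, −0.031 to 0.62 for Egr2, −0.37 to 0.30 for Ier3 and −0.0062 to 0.57 for Nr4a1. In VCR + RCM1 against VCR they ran from −0.58 to 0.43 for Fos, −0.81 to 0.57 for Fosb, −0.12 to 0.034 for Jun and −0.19 to 0.091 for Egr2. In VCR + RCM1 against RCM1 they ran from −0.061 to 0.095 for Jun, −0.056 to 0.28 for Egr1, −0.11 to 0.20 for Egr2, −0.30 to 0.22 for Ier3 and −0.22 to 0.51 for Nr4a1. For the interaction they ran from −0.48 to 1.13 for Fos, −0.24 to 1.57 for Fosb, −0.11 to 0.20 for Jun, −0.63 to 0.019 for Egr2, −0.55 to 0.11 for Ier3 and −0.25 to 0.39 for Dusp1. Each fit with a tumor left out had fewer samples, and the cause of the changes was not tested further.

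The number of members whose relation to Fos passed in both coefficients, 1 in the main analysis (Fosb), was 2 with each group centred, where permutation p-values may be too small. It was 0 without m1 and m4, an alternative chosen after seeing the data. On log2(TPM + 0.1), with a pseudocount of 5 and without any single tumor the number was 1. The r of Fos and Jun was 0.043 on log2(TPM + 0.1), 0.201 without m1 and m4, and −0.16 to 0.204 with single tumors left out. That of Fos and Ier3 was 0.284 without m1 and m4 and −0.562 to 0.149 with single tumors left out.

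Over all genes tested, the 977 called in VCR against vehicle became 2215 with DESeq2 on all tumors, 599 with no filter, 465 in edgeR on the compared groups and 9 at a threshold of 0.05. Where edgeR called 0 of all genes, DESeq2 on all tumors called 278 in RCM1 against vehicle, 60 in VCR + RCM1 against vehicle and 472 for the interaction; DESeq2 on the compared groups called 34, 251, 40 and 18 in RCM1 and VCR + RCM1 against vehicle and in VCR + RCM1 against VCR and against RCM1. No paired analysis was possible because the tumors are numbered m1 to m12 and no number is shared between groups. The lowest count of a member in any tumor was 241, and each group held 3 tumors.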
